A study of Sus scrofa and Rattus norvegicus with 8 samples.

Results

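De novo lipogenesis, the synthesis of fatty acids from carbohydrate-derived carbon, was examined in pig backfat through 9 genes, which were the enzymes ACLY, ME1, ACACA, FASN, ELOVL6 and SCD and the regulators THRSP, SREBF1 and MLXIPL. The members were chosen by symbol. Each of the 9 symbols matched 1 Ensembl gene ID, so they made up 9 of the 25880 gene IDs in the pig table, of which 14844 were nuclear genes with a symbol.

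The transcriptome was measured by rRNA-depleted, stranded RNA-seq in the upper layer of backfat, a subcutaneous depot, of 6 adult female Bama pigs aged 2 years, with 1 library per animal. The labels give no treatment, and according to the methods of the study, the animals had no feed during the night before slaughter, so all 6 libraries share that state. The series also holds 2 pooled libraries of inguinal fat from rats aged 32 weeks, whose gene IDs could not be matched to these genes and which were not used here. Because the pigs form a single group, the comparisons below are between genes within a library and between animals.

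In this pathway, ATP citrate lyase (ACLY) splits citrate exported from mitochondria to acetyl-CoA, and malic enzyme (ME1) supplies part of the NADPH. Acetyl-CoA carboxylase (ACACA) makes malonyl-CoA, fatty acid synthase (FASN) builds palmitate from it, and ELOVL6 and the desaturase SCD turn palmitate into longer and monounsaturated fatty acids. SREBF1 and MLXIPL encode SREBP1 and ChREBP, transcription factors that respond to insulin and to sugar, and THRSP (Spot 14) is a small protein induced by feeding and thyroid hormone. In pigs, adipose tissue rather than liver is the main site of this synthesis, and fasting is known to lower it.

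The levels are given as TPM, a length-corrected abundance on a fixed total per library, so levels of different genes may be compared within a library. Replicates 4 and 5 stood apart from the other 4 libraries before any gene was considered, since named nuclear genes held 3.34% and 4.73% of their TPM against 24.1 to 26.3% elsewhere. The values are therefore given both as deposited and as rescaled TPM, in which the named nuclear genes of each library sum to 1000000, and results that rest on these 2 libraries are given with and without them. The label of the tissue was met by its markers, as FABP4 (18679 ± 7299 rescaled TPM, SD, n = 6) and ADIPOQ (2992 ± 520 rescaled TPM, SD, n = 6) were abundant in every library. The summed level of 9 adipocyte markers ranged from 20806 to 37087 rescaled TPM, while 5 muscle markers summed to 14.9 to 60.4. The 8 mammary markers summed to 15.5 to 32.7 and the 7 skin markers found to 7.24 to 22.7. Of these, ELF5 (mean 13.4) and FAR2 (mean 7.25) were the highest. The milk protein gene LALBA and the sebaceous keratin KRT79 were listed at 0 in all 6 libraries. In bulk tissue, fewer cells of a type and less RNA per cell cannot be told apart.

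Of the 9 genes, 4 (ACACA, ACLY, FASN and SREBF1) are on chromosome 12 of Sscrofa11.1, but apart from each other. By RefSeq, FASN lies at chr12:922405-937560 on the plus strand and has 43 exons in its longest transcript, and ACACA at chr12:38580916-38875067 on the minus strand, with 55 exons. SREBF1 lies at chr12:60733967-60750951, and MLXIPL at chr3:10898675-10934257 on the minus strand. ELOVL6 is at chr8:112038670-112190079 and ME1 at chr1:82799878-82989895.

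On rescaled TPM over all 6 libraries, SCD and THRSP had the largest relative spread between pigs. Sequence upstream of the gene start is shown for SCD and THRSP, and for ACLY, the member that followed THRSP most closely there. Each is the 250 bases before the RefSeq gene start in Sscrofa11.1 on the plus strand, at chr14:111461310-111461559, chr9:12479663-12479912 and chr12:20796428-20796677 in that order. Capitals mark CCAAT or its reverse complement ATTGG, the letters bound by the factor NF-Y, a usual partner of SREBP1 at lipogenic promoters.

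SCD: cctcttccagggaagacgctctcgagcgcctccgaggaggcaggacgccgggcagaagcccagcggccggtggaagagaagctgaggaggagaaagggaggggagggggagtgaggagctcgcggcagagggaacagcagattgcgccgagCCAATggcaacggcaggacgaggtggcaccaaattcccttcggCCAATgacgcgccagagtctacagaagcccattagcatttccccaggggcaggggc
THRSP: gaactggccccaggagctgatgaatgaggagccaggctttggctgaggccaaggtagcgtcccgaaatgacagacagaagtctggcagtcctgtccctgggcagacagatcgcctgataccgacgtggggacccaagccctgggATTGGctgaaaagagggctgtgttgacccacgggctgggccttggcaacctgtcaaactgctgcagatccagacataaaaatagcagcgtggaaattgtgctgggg
ACLY: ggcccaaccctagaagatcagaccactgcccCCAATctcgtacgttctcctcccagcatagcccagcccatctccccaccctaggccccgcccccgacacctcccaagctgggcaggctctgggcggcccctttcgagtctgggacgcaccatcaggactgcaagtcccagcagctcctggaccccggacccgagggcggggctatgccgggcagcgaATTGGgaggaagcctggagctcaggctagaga

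CCAAT, searched on both strands, was present in the windows of SCD (2 matches), THRSP (1), ACLY (2) and ELOVL6 (2), that is in 4 of 9, beside 31.9% of 19572 windows of the same length. In the SCD window both matches lie on the coding strand, 99 and 56 bases before the gene start. GGGCGG, the letters of a GC box, was found in 5 of 9 windows beside 45.9% of all, with 5 matches before SREBF1. The E-box CACGTG (6.38% of all windows), the spelled-out sterol element TCACNCCAC (0.802%) and TATAAA (9.76%) were found in none of the 9 windows. A match is a description of the letters and not of binding, and no match says only that these letters are not in this window. The windows were placed by the annotated gene start, and whether they hold the promoter, as for FASN and SREBF1, was not tested.

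The enzymes that supply carbon and reducing power were considered first. ACLY had 33.6, 41.0, 52.4, 7.22, 29.3 and 29.8 TPM as deposited in replicates 1 to 6 (mean 32.2 ± 15.0, SD, n = 6). On the rescaled values it stood at 134, 170, 200, 216, 618 and 113 (mean 242 ± 188, SD, n = 6). Replicate 4 was thus the lowest library as deposited, whereas after rescaling replicate 5 lay far above the other 5, which spanned 113 to 216. The ratio of SD to mean (CV) of rescaled ACLY was 0.778 and became 0.260 without replicate 5.

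On rescaled TPM over all 6 libraries, ME1 had a lower CV than ACLY, at 0.385. Without replicate 5 that of ME1 was 0.283, and as deposited it was above that of ACLY (0.615 and 0.466). ME1 had 79.2, 77.6, 118, 13.2, 30.1 and 52.4 TPM as deposited (mean 61.8 ± 38.0, SD, n = 6). Rescaled, its levels were 317, 322, 453, 395, 636 and 199 (mean 387 ± 149, SD, n = 6), a 3.20-fold range between the highest library, replicate 5, and the lowest, replicate 6.

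ACACA and FASN, the enzymes that commit and carry out the synthesis of palmitate, shared their extreme libraries after rescaling. Both were highest in replicate 5, then in replicate 4, and lowest in replicate 6. ACACA had 43.2, 40.9, 43.3, 9.11, 17.1 and 29.0 TPM as deposited (mean 30.4 ± 14.6, SD, n = 6) and 173, 170, 165, 273, 362 and 110 rescaled TPM (mean 209 ± 91.6, SD, n = 6). Replicates 1 to 3 were nearly equal for ACACA on both scales, and its rescaled CV of 0.439 became 0.193 without replicates 4 and 5. FASN was several times as abundant, with 431, 257, 377, 60.1, 110 and 188 TPM as deposited (mean 237 ± 147, SD, n = 6) and 1726, 1067, 1441, 1799, 2329 and 714 rescaled TPM (mean 1513 ± 572, SD, n = 6). In replicates 1 to 3, where ACACA was nearly level, FASN spanned 1067 to 1726 rescaled TPM. In every library FASN exceeded ACACA, and the ACACA to FASN ratio kept between 0.10 and 0.159.

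Of the enzymes that modify palmitate, ELOVL6, which adds a carbon pair to it, had 229, 207, 244, 19.5, 63.2 and 83.1 TPM as deposited (mean 141 ± 96.9, SD, n = 6). Its rescaled levels were 916, 860, 933, 583, 1335 and 315 (mean 824 ± 346, SD, n = 6). For ELOVL6 the libraries of low named nuclear share were far apart after rescaling, with replicate 5 the highest and replicate 4 lower than all but replicate 6. SCD, which makes oleate and palmitoleate, was the most abundant member. It had 1058, 615, 2179, 331, 886 and 237 TPM as deposited (mean 884 ± 708, SD, n = 6) and 4235, 2550, 8324, 9912, 18716 and 900 rescaled TPM (mean 7440 ± 6496, SD, n = 6). The rescaled range was 20.8-fold, and among replicates 1, 2, 3 and 6 alone the SCD level still spanned 900 to 8324.

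SCD alone ranked 10 among the 14844 named nuclear genes by mean rescaled TPM, whereas FASN ranked 58, THRSP 103 and ELOVL6 118. The 9 genes together held 0.801, 0.595, 1.23, 1.39, 2.71 and 0.266% of the named nuclear TPM in replicates 1 to 6. SCD made up 33.9% of that share in replicate 6 and 71.1% in replicate 4. Without SCD the share of the other 8 genes was 0.340 to 0.402% in replicates 1 to 4, 0.841% in replicate 5 and 0.176% in replicate 6, so the large differences between replicates 1 to 4 were those of SCD.

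**Figure D1:**
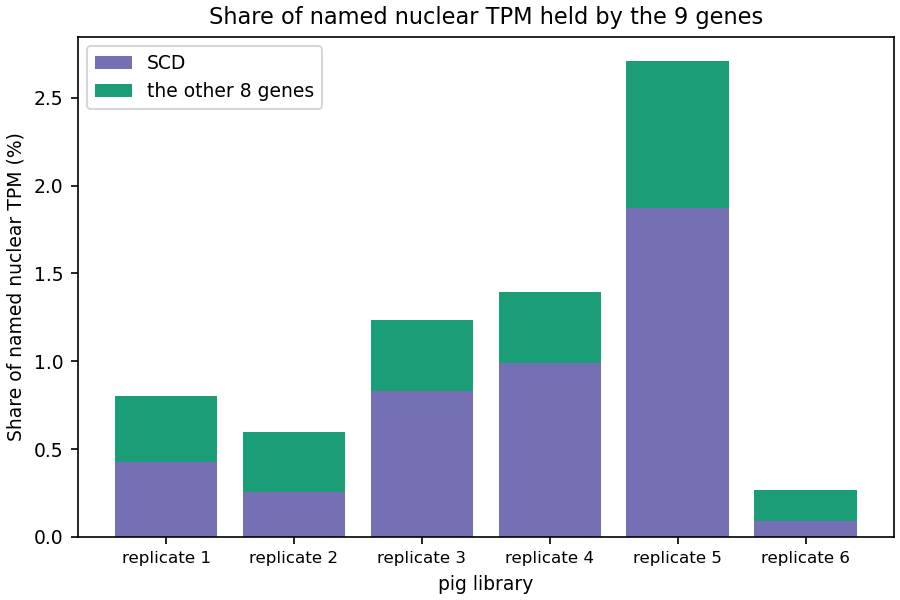
Stacked bars give the share (%) of named nuclear TPM held by SCD and by the other 8 lipogenesis genes in each pig library. The total runs from 0.266% in replicate 6 to 2.71% in replicate 5, and SCD is the larger part in 4 of 6 libraries.

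THRSP had the largest CV of the 9 on rescaled TPM over all 6 libraries. As deposited the largest was that of SREBF1 (0.961), beside 0.631 for THRSP. As deposited the levels of THRSP were 73.5, 170, 177, 23.7, 146 and 44.9 TPM (mean 106 ± 66.8, SD, n = 6), and rescaled they were 294, 704, 678, 709, 3089 and 170 (mean 941 ± 1078, SD, n = 6). Replicate 5 was 18.1-fold above replicate 6, and replicates 2, 3 and 4 were close together at 678 to 709. Without replicate 5 the rescaled CV of 1.15 became 0.506, and the mean of 941 became 511.

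The transcription factor genes were the least abundant members and did not share this pattern. SREBF1 had 29.2, 9.996, 18.8, 0.929, 1.297 and 8.005 TPM as deposited (mean 11.4 ± 10.9, SD, n = 6) and 117, 41.5, 71.9, 27.8, 27.4 and 30.4 rescaled TPM (mean 52.6 ± 35.7, SD, n = 6). Replicate 1 was the highest and replicates 4, 5 and 6 were the lowest, within 27.4 to 30.4 of each other after rescaling. MLXIPL had 25.2, 15.7, 18.1, 0.639, 0.747 and 28.0 TPM as deposited (mean 14.7 ± 11.8, SD, n = 6), and 101, 65.3, 69.0, 19.1, 15.8 and 106 rescaled TPM (mean 62.7 ± 38.7, SD, n = 6). For MLXIPL, replicate 6 was the highest library on both scales, the library in which most of the enzymes were at their lowest.

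**Figure D2:**
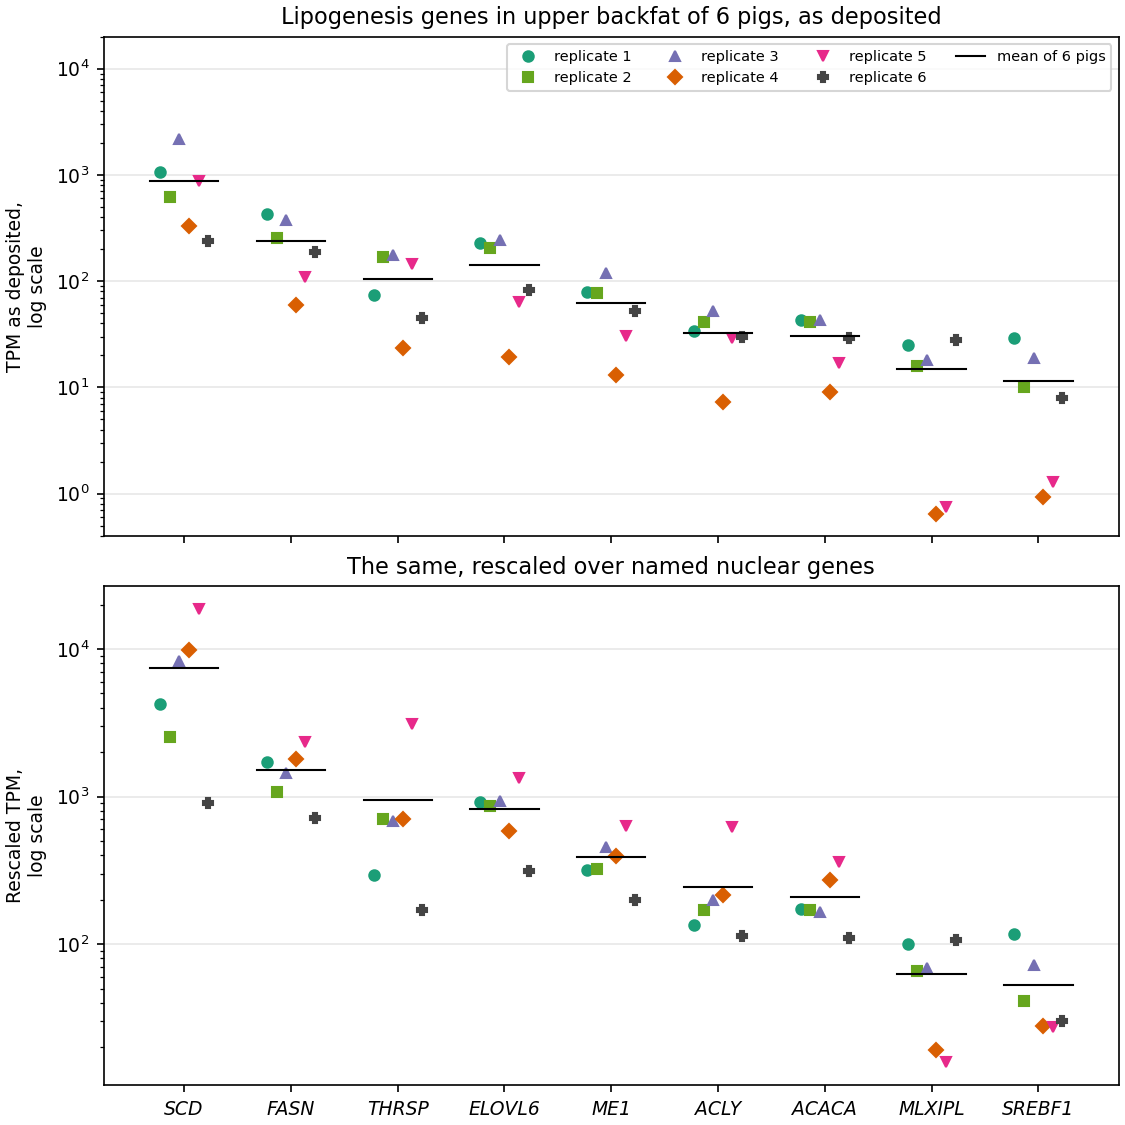
Each point is 1 of the 6 pig libraries and the black line is their mean, as deposited TPM (upper panel) and rescaled TPM (lower panel), both on a log axis. As deposited, replicate 4 is the lowest library for 8 of 9 genes, while after rescaling replicate 5 is the highest and replicate 6 the lowest for 7 of 9.

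The order of the levels within a library was then tested, which does not depend on the scale. For each of the 36 pairs of genes the log2 ratio in the 6 libraries was compared with 0 by a two-sided exact sign-flip permutation test, whose smallest p with 6 pigs is 0.03125. In 31 of 36 pairs the same gene was higher in all 6 libraries (exact p = 0.03125, Benjamini-Hochberg adjusted p = 0.0363 over the 36 pairs). By mean rescaled TPM the order was SCD, FASN, THRSP, ELOVL6, ME1, ACLY, ACACA, MLXIPL and SREBF1. The third place of THRSP was set by replicate 5, since without it the mean of THRSP (511) was below that of ELOVL6 (721). SCD was above each of the other 8 genes in all 6 libraries, and SREBF1 and MLXIPL were below each of the 6 enzymes and THRSP in all 6.

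The neighbours that were not separated mostly involved THRSP. FASN was above THRSP in 5 of 6 libraries (exact p = 0.0625, adjusted p = 0.0703), ELOVL6 in 4 of 6 (exact p = 0.469, adjusted p = 0.496) and ME1 in 2 of 6 (exact p = 0.125, adjusted p = 0.136). ACACA was above ACLY in 2 of 6 libraries (exact p = 0.781, adjusted p = 0.804), with a ratio of 0.585 to 1.29. SREBF1 was above MLXIPL in 4 of 6 (exact p = 0.8125, adjusted p = 0.8125). The place of THRSP thus depended on the animal, from below ME1 in 2 libraries to above FASN in replicate 5.

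Between animals, the deposited levels of the members went with the composition of the libraries. As deposited, 8 of 9 genes were lowest in replicate 4, but so were 86.6% of the 10189 named nuclear genes whose mean reached 1 TPM. For 7 of 9, all but SCD and THRSP, replicates 4 and 5 were both below the other 4, as for 99.1% of all genes. SCD in replicate 5 (886 TPM) exceeded replicates 2 and 6, and THRSP in replicate 5 (146 TPM) exceeded replicates 1 and 6, although all named nuclear genes together held a small part of that library.

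After rescaling, the members no longer shared a place for replicates 4 and 5. Replicates 4 and 5 were both above the other 4 libraries for 5 of 9 genes (ACACA, FASN, SCD, ACLY and THRSP), beside 10.4% of 12130 named nuclear genes whose mean reached 1 rescaled TPM. They were both below for 2 of 9 (SREBF1 and MLXIPL), beside 50.1%, while ME1 and ELOVL6 met neither description. Of these, MLXIPL kept its place under median-centring and quantile normalization, whereas SREBF1 did not, as its level in replicate 6 was then the lowest.

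The extremes were shared to a greater degree. ACACA, FASN, SCD, ELOVL6, ACLY, ME1 and THRSP were highest in replicate 5, 7 of 9 beside 11.6% of all genes. The same 7 were lowest in replicate 6, beside 4.90%, and the combination of both was met by 7 of 9 members and 2.10% of all genes. When each level was taken relative to the mean log2 level of 9 adipocyte markers of the same library, the same 7 genes were highest in replicate 5 and lowest in replicate 6. SCD ranged from -0.49 (replicate 6) to 4.16 (replicate 5) log2 units relative to these markers and FASN from -0.83 to 1.15.

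The low levels in replicate 6 were also seen without the 2 libraries that stood apart. The 2 scales differ little there (rescaling factors of 3.80 to 4.15), so a result on both cannot show independence of the scale. Among replicates 1, 2, 3 and 6 alone, 8 of 9 genes, all but MLXIPL, were lowest in replicate 6 on rescaled TPM, beside 14.3% of the 12258 genes whose mean over these libraries reached 1. On TPM as deposited the same 8 were lowest there, beside 9.88% of 10734 genes. MLXIPL was highest in replicate 6 on both scales, as were 25.0% and 34.9% of all genes. Some genes had the same order over these 4 libraries on rescaled TPM. From highest to lowest it was replicates 1, 3, 2 and 6 for FASN and SREBF1. It was 3, 1, 2 and 6 for ELOVL6 and SCD, and 3, 2, 1 and 6 for ACLY and ME1.

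**Figure D3:**
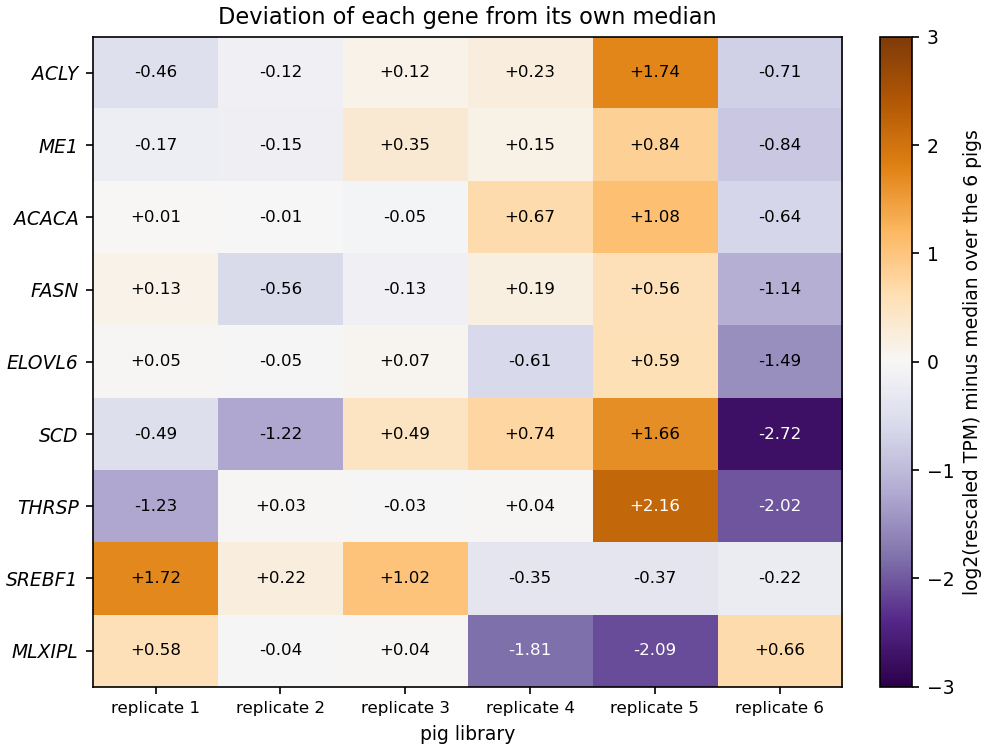
Each cell gives the log2 rescaled TPM of a gene (row) in a pig library (column) minus the median of that gene over the 6 pigs. The upper 7 rows are highest in replicate 5 and lowest in replicate 6, from 2.16 to -2.72, while MLXIPL is lowest in replicate 5 (-2.09) and highest in replicate 6.

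The summed adipocyte markers were highest in replicate 5 (37087 rescaled TPM) and lowest in replicate 6 (20806). This range was smaller than that of the 7 genes. FABP4 was the largest part of the sum, at 28926 rescaled TPM in replicate 5 and 10827 in replicate 6. Singly, 1 of the 9 markers was highest in replicate 5 and 0 were lowest in replicate 6, beside 11.6% and 4.90% of all genes. These counts are near those shares and do not set the markers apart from genes at large. The sum of a further list had its extremes in the same libraries. The 6 liver markers searched summed to 319, 1182, 546, 1287, 1580 and 202 rescaled TPM in replicates 1 to 6, so that replicate 5 was the highest and replicate 6 the lowest here too. ALB, which encodes serum albumin, was the largest part of this sum in replicates 2 to 5 (mean 519 ± 428 rescaled TPM, SD, n = 6), whereas APOA1 was the largest in replicates 1 and 6 (207 and 136 rescaled TPM). Of the 5 liver markers with a mean of at least 1 rescaled TPM, 4 were lowest in replicate 6 and 2 highest in replicate 5. The shares of all genes were 4.90% and 11.6%. FGB had 14.3, 166, 43.5, 335, 203 and 10.7 rescaled TPM in replicates 1 to 6, and CYP2E1 reached 16.3. SERPINA1 was listed at 0 in 5 libraries and at 0.358 rescaled TPM in replicate 5. THRSP had the same order of the 6 libraries as this sum, while SCD differed from it within replicates 1 to 3, where SCD was highest in replicate 3 and the sum in replicate 2. The part of these transcripts in the result was not tested. The summed markers of stromal cells (11683 to 32497 rescaled TPM), endothelial cells (644 to 1407) and macrophages (481 to 1152) were each lowest in replicate 4 or 5, and none was lowest in replicate 6.

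Transcript length and GC content also went with the difference of replicates 4 and 5 from the other libraries. Over the 11136 genes (91.8% of 12130) with a RefSeq transcript, the median log2 difference of rescaled TPM + 1 was -0.49. It went from -0.28 in the bin of lowest GC content to -0.68 in that of 57.1 to 59.8%, and was -0.55 in the highest bin. FASN, SREBF1 and MLXIPL, with transcripts of 8017, 4288 and 3561 bases, are in that highest bin. Genes in the same bin of GC content and of length as FASN (GC 67.1%, 10 bins of each) had a median of -1.21, whereas FASN itself was at 0.80. SREBF1 (GC 68.6%) was at -1.02 beside a median of -0.89 for its like genes, and MLXIPL (GC 64.4%) at -2.20 beside -0.66. SREBF1 therefore lay near genes of its kind and MLXIPL below them. The other members were above theirs, with 2.18 for SCD beside -0.69, 1.91 for THRSP beside 0.024, 1.27 for ACLY beside -0.77, 1.04 for ACACA beside -0.98, 0.69 for ME1 beside -0.31 and 0.35 for ELOVL6 beside -0.40.

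**Figure D4:**
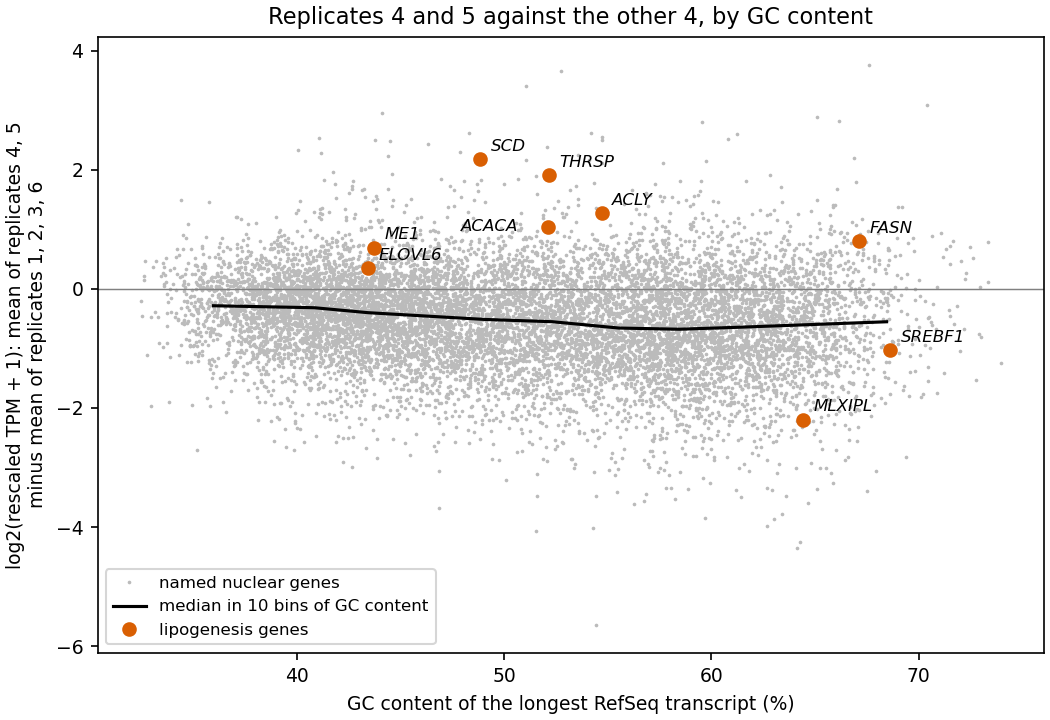
Each grey point is a named nuclear gene, placed by the GC content (%) of its longest RefSeq transcript and by the mean log2(rescaled TPM + 1) of replicates 4 and 5 minus that of replicates 1, 2, 3 and 6. The black line joins the medians of 10 bins of GC content, and of the 9 lipogenesis genes (orange) SREBF1 and MLXIPL alone lie below it.

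The spread of the members was set against that of all genes. Their median CV was 0.617 on rescaled TPM, beside 0.282 for the 8866 named nuclear genes with a mean of at least 10 rescaled TPM, and 0.631 beside 0.680 as deposited. THRSP (CV 1.15) was equalled or exceeded by 0.350% of those genes, SCD (0.873) by 0.947%, ACLY (0.778) by 1.51%, SREBF1 (0.678) by 3.25% and MLXIPL (0.617) by 5.66%. ACACA (0.439), ELOVL6 (0.421), ME1 (0.385) and FASN (0.378) were exceeded by 21.5 to 30.9% of genes. Without replicates 4 and 5 the median CV of the members was 0.356, and the largest were those of SCD (0.796), SREBF1 (0.594) and THRSP (0.585). The CV of all genes without these 2 libraries was not computed, so the members cannot be set against it there.

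How the members varied together was measured by the SD over the 6 libraries of the log2 ratio of a pair, a value that is small when 2 genes keep their ratio and that no rescaling of a library can alter. No correlation over samples was computed, because replicates 4 and 5 form a separate cluster. Over the 36 pairs the median SD was 0.990, beside 0.579 over all pairs of 8853 named nuclear genes. As a set the members thus kept their ratios less closely than genes at large, but the pairs differed widely.

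The enzymes ACACA, FASN, ELOVL6, ACLY and ME1, grouped after their values were seen, kept close ratios. Their 10 pairs had SDs of 0.282 to 0.643 with a median of 0.426, the smallest being ACACA with FASN (0.282), FASN with ME1 (0.298) and ACACA with ME1 (0.301). FASN was 3.18 to 5.45 times as abundant as ME1 and 1.24 to 3.09 times as abundant as ELOVL6. Against SCD and THRSP these 5 enzymes had a median SD of 0.995, and ACLY with THRSP was the closest such pair at 0.632. Without replicates 4 and 5 the median was 0.365 within the 5 enzymes and 0.695 over all 36 pairs, beside 0.357 for all pairs of named nuclear genes, so in the other 4 libraries the enzymes kept their ratios no more closely than genes at large.

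Over all 6 libraries the transcription factor genes were the farthest from the enzymes, a ranking that rested on replicates 4 and 5. The median SD of the 5 enzymes against SREBF1 and MLXIPL was 1.54, and that of SCD and THRSP against them 2.21. Without replicates 4 and 5 the medians were 0.695 and 1.26, and the 5 enzymes were then farther from SCD and THRSP (0.833) than from SREBF1 and MLXIPL. The SCD to MLXIPL ratio had the largest SD, 2.63, and ran from 8.48 in replicate 6 to 1185 in replicate 5. SREBF1 and FASN were at an SD of 1.001 over all 6 pigs but at 0.352 over replicates 1, 2, 3 and 6, near the 0.357 of all pairs of genes there. SREBF1 and MLXIPL were at an SD of 0.954 from each other, so the 2 regulators did not form a close pair either.

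**Figure D5:**
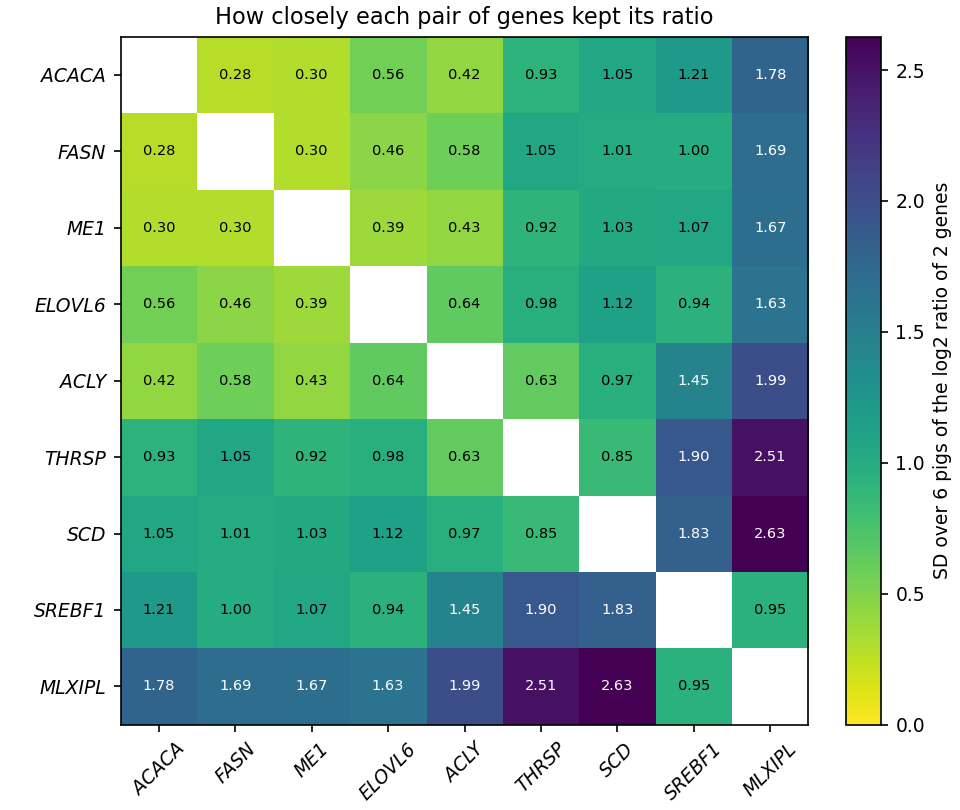
Colour and number give the SD over the 6 pigs of the log2 ratio of each pair of genes, with yellow for pairs that kept their ratio. The smallest SD is 0.28 (ACACA with FASN) and the largest 2.63 (SCD with MLXIPL).

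Ranked among 8852 named nuclear genes, the other members came early for some genes and late for others. ACACA was the 15th and ME1 the 19th nearest gene to FASN, and ME1 was also the 15th nearest to ELOVL6. ACLY was the 3rd nearest to THRSP, and THRSP the 5th nearest to SCD. These ranks were taken over all 6 libraries. Without replicates 4 and 5 the SDs of these pairs were 0.325, 0.356, 0.392, 0.653 and 0.956 in that order. The median of all pairs of named nuclear genes was then 0.357. Over all 6 libraries, the 6 enzymes and THRSP stood at ranks 8440 to 8826 from MLXIPL, near the far end.

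The genes whose pattern was most like that of a member were named by the same measure, among genes with a mean of at least 10 rescaled TPM. The nearest to ACACA were the peroxisomal coenzyme A hydrolase gene NUDT7 (SD 0.116) and SAP18 (0.133), and to FASN NUDT2 (0.110) and HOMER2 (0.136). ME1 was nearest to ACAA2, a mitochondrial thiolase (0.141), and to HSD17B12, a ketoacyl-CoA reductase of fatty acid elongation (0.206). ELOVL6 was nearest to CBR4 (0.247), a subunit of the mitochondrial ketoacyl reductase, and CARHSP1 (0.290).

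SCD and THRSP had no gene as close. For SCD the nearest were S100A12 (SD 0.377) and the serine synthesis gene PSPH (0.583), for THRSP KLHL31 (0.493) and PSPH (0.570), and for ACLY the retinal dehydrogenase ALDH1A1 (0.253) and UQCR10 (0.276). For the regulators they were HUNK (0.280) and PEBP4 (0.284) with SREBF1, and LPCAT4 (0.108) and the collagen gene COL6A1 (0.118) with MLXIPL. To the mean log2 level of all 9 members the 5 nearest were EHHADH, EPDR1, CARHSP1, ACAA2 and ITGA7, at 0.166 to 0.234. These names rest on few libraries, since without replicates 4 and 5 none of the 18 nearest genes of single members was chosen again, and without replicate 5 alone 4 were.

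Other genes of the pathway were followed in 7 lists with 74 genes, of which 70 were found and 69 had a mean of at least 1 rescaled TPM. Of these, 21 (30.4%) were highest in replicate 5, 14 (20.3%) lowest in replicate 6 and 10 (14.5%) both, beside 11.6%, 4.90% and 2.10% of all genes. The 10 were PDHB, MPC2 and MDH1 of carbon supply, TKT and IDH1 of NADPH supply, ELOVL5 and HSD17B12 of elongation, and those that follow. They were MID1IP1 of the partners and kinases of ACACA, and OXSM and CBR4 of mitochondrial fatty acid synthesis.

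Carbon supply was the list with the most genes highest in replicate 5, 6 of 10. Its most abundant genes were PC, the pyruvate carboxylase gene (292 ± 211 TPM, SD, n = 6), PDHA1 (102 ± 51.5) and CS (95.7 ± 64.2), and the largest CV was that of PDHB, a subunit of pyruvate dehydrogenase, with 47.8, 56.7, 49.1, 171, 293 and 35.8 rescaled TPM. PDHB was thus several times as high in replicates 4 and 5 as in any other library. PC, in contrast, was lowest in replicate 5 at 687 rescaled TPM and at 1250 to 1853 in replicates 1, 2, 3 and 6.

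In NADPH supply, 4 of 9 genes were highest in replicate 5 and 2 lowest in replicate 6. IDH1 (97.6 ± 57.0 TPM, SD, n = 6), TKT (65.3 ± 37.5) and the phosphogluconate dehydrogenase gene PGD (61.05 ± 35.5) were the most abundant, at levels near or above that of ME1 (61.8 ± 38.0). The largest CV was that of TALDO1, at 0.387.

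Elongation and desaturation genes gave 5 of 16 highest in replicate 5 and 4 lowest in replicate 6. ELOVL5 (196 ± 124 TPM, SD, n = 6), CYB5R3 (140 ± 106) and HSD17B12 (73.9 ± 43.1) led the list, so ELOVL5, an elongase of polyunsaturated fatty acids, had a mean above that of ELOVL6. CYB5A, the cytochrome b5 that passes electrons to SCD, was at 433 and 345 rescaled TPM in replicates 4 and 5 against 131 to 183 in the others, with its lowest level in replicate 6, as SCD. FADS2 had the largest CV (0.575) and was lowest in replicate 4. SCD5, a further desaturase of this kind, stood at a mean of 0.770 ± 0.569 TPM (SD, n = 6).

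Regulatory genes were considered last. None of 6 SREBP-processing genes and none of 13 further lipogenic transcription factors was highest in replicate 5, beside 11.6% of all genes, a share at which few of these genes would be. Of the 13, 9 had both low-share libraries below the other 4, beside 50.1% of all genes, among them MLXIP, a paralogue of MLXIPL, with 14.7 and 10.8 rescaled TPM against 33.8 to 62.9. PPARG (93.9 ± 72.2 TPM, SD, n = 6), RXRA (44.2 ± 30.7) and CEBPA (41.0 ± 17.9) were the most abundant. CEBPA was an exception, at 562 and 539 rescaled TPM in replicates 4 and 5 and 153 to 267 in the others, lowest in replicate 6. NFYA, a subunit of the CCAAT-binding NF-Y, had the largest CV (0.789), with 41.1 and 49.3 rescaled TPM in replicates 1 and 2 and 6.998 to 21.5 in the others.

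Among SREBP-processing genes MBTPS1 (19.9 ± 13.1 TPM, SD, n = 6), FBXW7 (9.01 ± 5.92) and INSIG2 (6.24 ± 3.49) were the most abundant, and SREBF2 had the largest CV (0.403). SREBF2, which directs cholesterol rather than fatty acid synthesis, had 12.5 and 11.7 rescaled TPM in replicates 4 and 5 and 24.0 to 34.9 in the others, the highest being replicate 6. Of the partners and kinases of ACACA, PRKAG2 (22.0 ± 18.4 TPM, SD, n = 6), PRKAG1 (20.8 ± 13.6) and PPP2CA (19.8 ± 11.0) led, and PRKAG2, a subunit of AMP-activated kinase, varied most (CV 0.655), from 27.5 rescaled TPM in replicate 5 to 187 in replicate 1. The catalytic subunit genes PRKAA1 and PRKAA2 were even over the pigs, with CVs of 0.0984 and 0.0776.

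Mitochondrial fatty acid synthesis, a separate pathway that makes the lipoate precursor, was led by NDUFAB1 (57.7 ± 41.6 TPM, SD, n = 6), MECR (38.6 ± 28.8) and HSD17B8 (9.52 ± 5.13). MECR had the largest CV (0.543) and was at 46.0 and 56.8 rescaled TPM in replicates 4 and 5 against 203 to 250 in the others. In this list 3 of 6 genes were highest in replicate 5 and 2 of 6 lowest in replicate 6.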

How the data were processed

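Adipose RNA of 6 pigs and 2 rat pools was rRNA-depleted and sequenced as stranded libraries. The values are TPM, which the authors computed with kallisto 0.43.0 (per the submitters' processing notes) and deposited as 1 table per species. Pig reads were assigned to genes of Sscrofa11.1, by the study's methods. TPM keep no read counts, so depth is unknown, no counting error can be given, and precision comes from the spread between animals. The rat table was not used.

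A name table gave symbols for 14857 of 25880 Ensembl IDs. The genes and gene lists were chosen with earlier results of these data known, and replicate numbers name animals only. Rescaled TPM set the sum over the 14844 named nuclear genes of a library to 1000000. Means ± SD, CVs and within-library log2 ratios were computed with Python 3.11.15, numpy 2.4.6 and pandas 2.3.3. Levels of paired genes were compared by an exact sign-flip permutation test, two-sided, over 64 flips, with Benjamini-Hochberg adjustment over 36 pairs. Likeness of 2 genes was the SD of their log2 ratio, among genes above 0 in all libraries with a mean of at least 10 rescaled TPM. The ratio, all-pair and sign-flip steps were tested on simulated data.

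The genes named are the 9 members, the 2 genes nearest to each, the 5 nearest to their mean, and of each pathway list the 3 of highest mean TPM and the 1 of largest CV among those with a mean of at least 10 rescaled TPM, and of each marker list the highest. PDHB, MPC2, MDH1, OXSM, CBR4, MID1IP1, CYB5A, MLXIP, SCD5, PRKAA1, PRKAA2 and single markers were named after their values were seen. Positions, exons, transcript length, GC content and the 250-base upstream windows come from the RefSeq annotation and sequence of Sscrofa11.1 (longest transcript per symbol, read with pyfaidx 0.9.0.4). Of the listed pathway genes, MPC1, TECR, ACACB and MBTPS2 were not matched in the name table. Alternatives were median-centring, quantile normalization, rescaling without ribosomal protein genes, a pseudocount of 1, other expression minima, and leaving out single libraries or replicates 4 and 5.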

Additional observations from a re-analysis of the deposited data

Results flagged for a closer look

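A library far from the other 5 of its gene, by Dixon's ratio of gap to range, was found in 2 of 19 sets of 6 values examined, where chance sets apart about 1 in 20. Rescaled ACLY was 618 in replicate 5, against 113 to 216 rescaled TPM in the other 5 libraries (ratio 0.796). Rescaled THRSP was 3089 in replicate 5, against 170 to 709 (ratio 0.816). As deposited, neither gene had a library set apart. Replicate 5 is 1 of the 2 libraries with a small named nuclear share, and its part in these values was not tested.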

How the results depend on the processing

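The order of the levels kept the same gene higher throughout in 31 to 33 of 36 pairs under every alternative run (31 to 32 when 1 library was left out). The median SD of the log2 ratio over the pairs was 0.879 to 1.08 when 1 library was left out, 0.695 without replicates 4 and 5 and 0.982 with a pseudocount of 1. The median CV of the members was 0.371 to 0.702 when 1 library was left out, the lowest without replicate 5, and 0.356 without both libraries of low named nuclear share. The number of genes with replicates 4 and 5 both above the others was 5, and 6, 4 and 5 under median-centring, quantile normalization and rescaling without ribosomal protein genes, but 0 on TPM as deposited, a scale added after the data were seen. The number with both below was 2, and 1 under median-centring, 1 under quantile normalization and 7 as deposited. The share of all genes with both above was 10.4%, and 27.7% under median-centring, 27.6% under quantile normalization and 0.0589% as deposited. With both below it was 50.1%, 28.2%, 25.7% and 99.1% in the same order. Without ribosomal protein genes the shares were 11.7% above and 47.7% below. The number highest in replicate 5 and lowest in replicate 6 was 7, also under each scaling and relative to adipocyte markers (alternatives added later) and 0 as deposited. The share of all genes was 2.10%, and 5.11% under median-centring and 5.13% under quantile normalization. It was 2.30% without ribosomal protein genes and 0.0196% as deposited. Among values of single genes, no rescaled mean moved beyond 1 SD under another scaling. Leaving out 1 of 6 libraries cannot move a mean that far, so the 1 SD limit decides nothing there. THRSP moved most in relative terms, from 941 to 511 rescaled TPM without replicate 5, and SCD went from 7440 to 5184. Without replicates 4 and 5, 4 of 9 rescaled CVs moved by over 1.5 times. No paired analysis was possible because the pigs form 1 group, the numbers shared with the rat pools pair no animals, and the rat genes could not be matched. TPM keep no depth, so low levels such as those of MLXIPL and SREBF1 in replicates 4 and 5 have an unknown counting error.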
